A study of Mus musculus with 9 samples.

Results

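The genes described here are 10 genes of phosphate handling and mineralization, which were chosen by symbol from a list of phosphate and pyrophosphate enzymes and transporters, Phex, Fgf23 and the secretory kinase Fam20c. They were found among the 39179 Ensembl genes of the count tables through the GENCODE annotation of GRCm38, and all 10 had a row. Of the 10, 9 passed the filter on low counts and were among the 13418 genes tested. Fgf23 did not.

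RNA was sequenced from pieces of femur cut by laser microdissection (LMD), each a capillary of the ossification front (OF) with the cells around it. The juvenile group held 5 libraries from mice aged 4 weeks and the adult group 4 libraries from mice aged 12 weeks. All mice were Tg(TIE2GFP)287Sato/J reporter animals of C57BL/6 origin, in which a Tie2 promoter drives GFP in endothelial cells, and no treatment is named for either age. GFP guided the cutting, so the pieces were chosen by their vessels and held whatever other cells lay beside them, and several pieces were pooled in a library.

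Bone mineral forms where phosphate outweighs pyrophosphate, an inhibitor of crystal growth. Tissue-nonspecific alkaline phosphatase, the product of Alpl, cleaves pyrophosphate, whereas ENPP1 makes it from extracellular ATP and ANK promotes the release of ATP and pyrophosphate from cells. Inside matrix vesicles PHOSPHO1 releases phosphate from phosphocholine, which the sphingomyelinase encoded by Smpd3 helps to supply, and osteocytes set systemic phosphate through FGF23 and PHEX.

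Library totals were 5706342, 7398483, 4856833, 5844430 and 5001866 counts in juvenile replicates 1 to 5, and 8077362, 5821596, 7775714 and 7206651 counts in adult replicates 1 to 4. Juvenile replicates 4 and 5 stood apart in sex-linked genes, with 1099 and 978 counts on 4 Y-linked genes against at most 5 in any other library. Because every adult library had the other pattern, age and this pattern cannot be separated for these 2 juvenile libraries, and members were also compared over the other 7 libraries, in which Xist exceeded the Y-linked genes. Adult replicate 2 stood apart in the markers of other cells given further on.

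Smpd3 had higher counts in juvenile than in adult mice. With all libraries it was the 1 member of 9 tested that passed the threshold of 0.05 on the adjusted p of edgeR. Among all genes tested, 520 (3.88%) passed, 267 (1.99%) with higher counts in juvenile and 253 (1.89%) in adult mice. For Smpd3, Phospho1 and Fam20c every juvenile library lay above every adult library, which held for 680 genes (5.07%) of those tested. Phospho1 passed the filter on low counts through its juvenile libraries alone. Its lack of overlap and its part in the median of the members are therefore not independent of the filter. No member had all adult libraries higher, against 548 genes (4.08%), and 1228 genes (9.15%) did not overlap in either direction. The median log2 fold change, juvenile over adult, was 0.53 over the 9 members and -0.0066 over all genes tested. In bulk pieces of tissue, fewer cells of a type and less RNA per cell cannot be told apart.

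Smpd3 (ENSMUSG00000031906, chromosome 8, 106252548 to 106337988, minus strand) encodes neutral sphingomyelinase 2, which splits sphingomyelin into ceramide and phosphocholine. Its normalized counts, which are counts divided by each library's effective size over the geometric mean of all sizes, were 7124, 4776, 6351, 8831 and 8965 in juvenile replicates 1 to 5. In adult replicates 1 to 4 they were 2636, 3608, 3423 and 3119. Juvenile replicates 4 and 5 were the highest and juvenile replicate 2 was the lowest of its age, still above the highest adult library. The juvenile mean was 7209 ± 1759 (SD, n = 5) and the adult mean 3196 ± 424 (SD, n = 4), for a log2 fold change of 1.17 ± 0.20 (SE, edgeR adjusted p = 0.00755). Over the 7 libraries in which Xist exceeded Y-linked genes it was 0.93 ± 0.19 (SE, edgeR adjusted p = 0.0787), and the call was lost. Over all settings with other tools, scalings, filters or samples its adjusted p was 1.01e-06 to 0.0787. With a block for replicate number the adjusted p was 0.0801 in edgeR, and the call was lost there too. Exons of Smpd3 share 247 of 5232 bases with Prmt7 on the opposite strand, and the library kit does not mark strand.

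Phospho1 (ENSMUSG00000050860, chromosome 11, 95824499 to 95832140, plus strand), the phosphatase of phosphocholine in matrix vesicles, had few counts, 136 over all 9 libraries. Normalized counts were 9.10, 18.1, 32.1, 29.5 and 42.6 in juvenile replicates 1 to 5 and 3.63, 3.14, 8.54 and 6.29 in adult replicates 1 to 4. Juvenile replicate 1 lay just above adult replicate 3, and the ages did not overlap, in a gene that passed the filter through its juvenile libraries alone. The log2 fold change was 2.25 ± 0.86 (SE, edgeR adjusted p = 0.177), with means of 26.3 ± 13.0 (SD, n = 5) and 5.40 ± 2.51 (SD, n = 4). Of the 2029 exon bases of Phospho1, 1818 are shared with Zfp652 on the same strand and 1708 with Abi3 on the opposite strand. Its counts are therefore uncertain, since reads on shared bases could have been left out or counted on another gene. DESeq2, which called 1490 genes where edgeR called 520, was the 1 tool to call Phospho1, at an adjusted p of 0.0488, the lowest of its settings, which reached 0.553. Neither edgeR nor limma voom made this call, and it is uncertain.

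**Figure D1:**
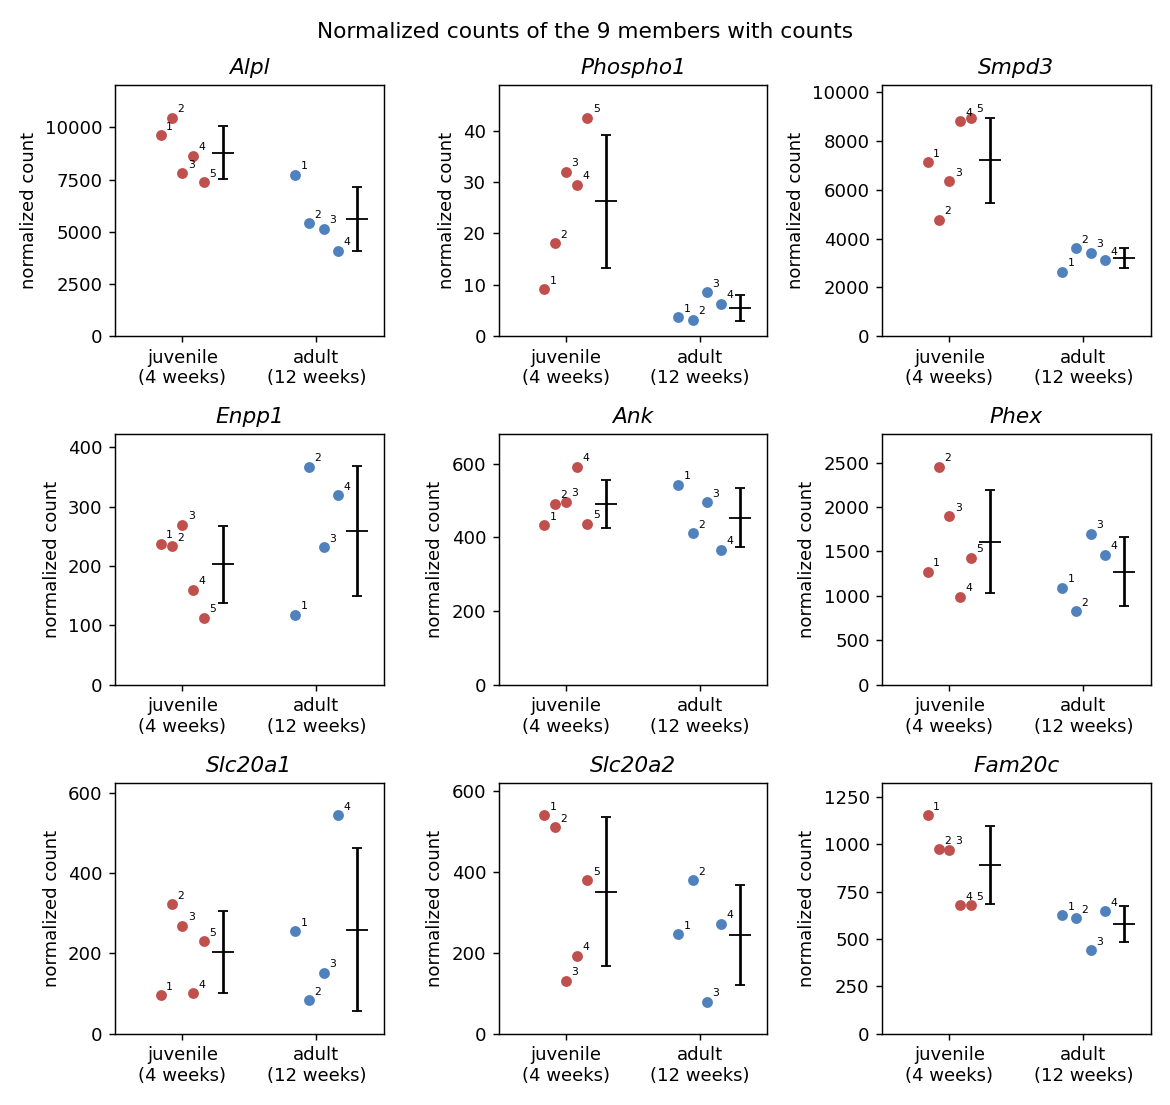
Normalized counts (y axis, linear from 0) of the 9 members with counts in juvenile (4 weeks, n = 5) and adult (12 weeks, n = 4) libraries. Points are libraries with their replicate numbers and bars are the mean and SD. All juvenile points lie above all adult points for Smpd3, Phospho1 and Fam20c.

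Alpl (ENSMUSG00000028766, chromosome 4, 137741733 to 137796384, minus strand) encodes the alkaline phosphatase of bone, liver and kidney. Normalized counts were 9626, 10471, 7808, 8655 and 7369.9 in juvenile replicates 1 to 5 and 7743, 5403, 5149.9 and 4096 in adult replicates 1 to 4. Adult replicate 1 lay within the juvenile range, and the other 3 adult libraries lay below all juvenile libraries. The juvenile mean was 8786 ± 1277 (SD, n = 5) and the adult mean 5598 ± 1538 (SD, n = 4), and the log2 fold change of 0.65 (standard error 0.19) missed the threshold (edgeR adjusted p = 0.0815). Without adult replicate 1 the log2 fold change was 0.83 (adjusted p = 0.0234, edgeR). It passed in no other case with 1 library left out, and was 0.51 without adult replicate 4 (adjusted p = 0.17, edgeR). The adjusted p was 0.0293 in DESeq2 and 0.035 in limma voom with quality weights, and over the 7 libraries the log2 fold change was 0.73 ± 0.22 (SE, edgeR adjusted p = 0.201), the highest p of these settings.

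Enpp1 (ENSMUSG00000037370, chromosome 10, 24637914 to 24712159, minus strand) and Ank (ENSMUSG00000022265, chromosome 15, 27466677 to 27594909, plus strand) act on the supply of extracellular pyrophosphate. For Enpp1, normalized counts were 238, 233, 270, 160 and 113 in juvenile replicates 1 to 5 and 118, 368, 231 and 319 in adult replicates 1 to 4. The ages overlapped, with juvenile replicates 4 and 5 and adult replicate 1 the lowest, and the log2 fold change was -0.35 ± 0.37 (SE, edgeR adjusted p = 0.72). This value was -0.61 without adult replicate 1, -0.15 without adult replicate 2 and -0.066 over the 7 libraries, so its size depended on single libraries. Ank ranged from 434 to 593 normalized counts in juvenile and from 366 to 543 in adult mice, with a log2 fold change of 0.11 ± 0.20 (SE, edgeR adjusted p = 0.862) that lay between 0.0015 without adult replicate 4 and 0.19 without adult replicate 1. Its SD was 13.1% of the mean in juvenile and 17.6% in adult mice, where that of Slc20a1 was 49.8% and 78.5%.

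The ratio of 2 genes within a library does not depend on how libraries are scaled, apart from the prior count of 2 added on the log scale. The log2 ratio of Alpl to Ank, in counts per 1000000 (CPM), was 4.47, 4.41, 3.97, 3.86 and 4.07 in juvenile replicates 1 to 5 and 3.83, 3.71, 3.37 and 3.48 in adult replicates 1 to 4. Every juvenile library was above every adult library, although the lowest juvenile and highest adult values lay close together. The difference of 0.56, juvenile minus adult as for all ratios here, had an exact permutation p of 0.0159, the smallest that 5 libraries against 4 can give in this two-sided test, and an adjusted p of 0.0317 over 6 ratios. Of these 2 were to Dmp1, a gene already known to be higher in juvenile mice when the ratios were chosen, and over the other 4 the adjusted p was 0.0635, so that Alpl to Ank no longer passed. Over the 7 libraries 3 against 4 cannot give a p under 0.0571. Alpl to Enpp1 averaged 5.48 ± 0.44 (SD, n = 5) and 4.50 ± 1.06 (SD, n = 4) on the log2 scale, and overlapped, with adult replicate 1 at 6.01 (exact permutation p = 0.127, adjusted 0.171). Without that library the difference of 0.97 became 1.48. Phospho1 to Smpd3 differed by 0.70 (exact permutation p = 0.143, adjusted 0.171), with juvenile replicate 1 at -9.33 within the adult range. As Phospho1 had few counts, this difference was 0.96 with a prior count of 0.5 and 0.37 with one of 5, and 1.01 without juvenile replicate 1, which lowered the adjusted p of the exact permutation test to 0.0429 over the 6 ratios and 0.0571 over the 4 without Dmp1.

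**Figure D2:**
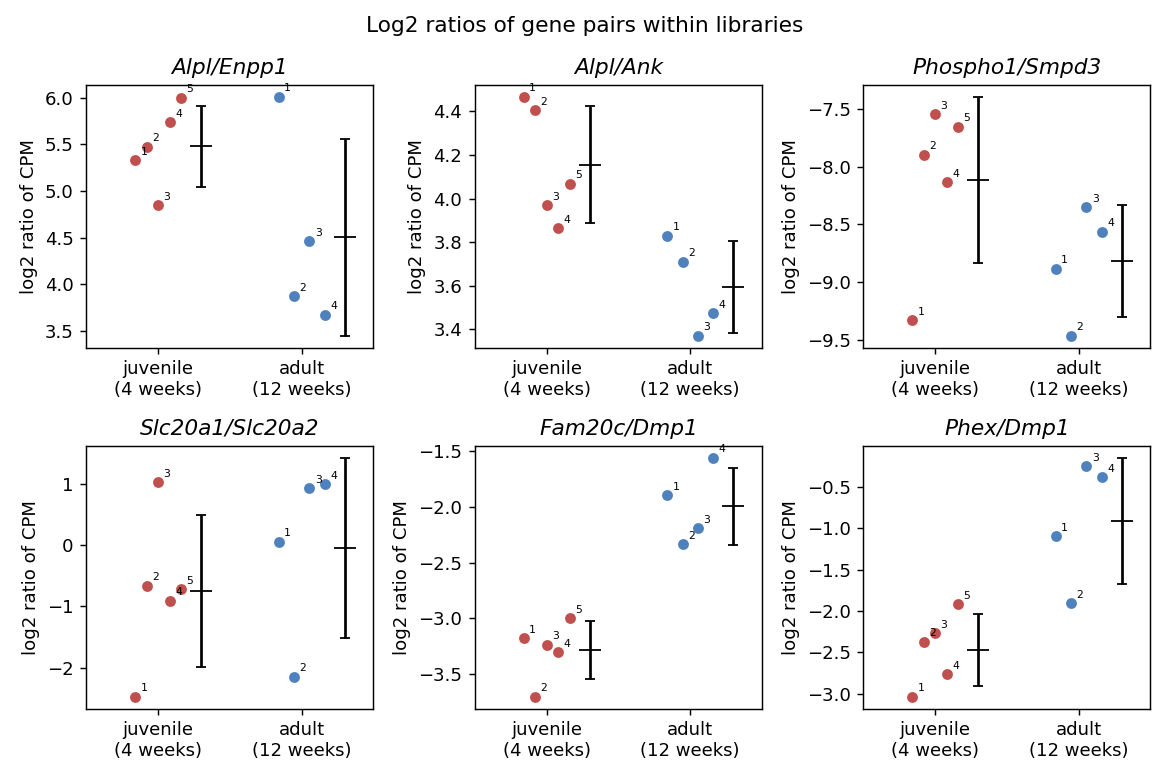
Log2 ratios of CPM (y axis) of 6 gene pairs in juvenile (4 weeks, n = 5) and adult (12 weeks, n = 4) libraries. Points are libraries with their replicate numbers and bars are the mean and SD. The ages do not overlap for Alpl/Ank and Fam20c/Dmp1, and for Phex/Dmp1 they nearly meet, at -1.92 and -1.91.

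The sodium-dependent phosphate carriers Slc20a1 (ENSMUSG00000027397, chromosome 2) and Slc20a2 (ENSMUSG00000037656, chromosome 8), known as PiT-1 and PiT-2, import phosphate into cells. Slc20a1 had 95.6, 322, 268, 101 and 230.1 normalized counts in juvenile replicates 1 to 5 and 255, 83.9, 151 and 544 in adult replicates 1 to 4. Slc20a2 had 539, 509.9, 131, 192 and 379 in juvenile replicates 1 to 5 and 246, 378, 78.4 and 271 in adult replicates 1 to 4. Both carriers overlapped between the ages and spread widely within them. Log2 fold changes were -0.35 ± 0.52 (SE, edgeR adjusted p = 0.822) for Slc20a1 and 0.53 ± 0.48 (SE, edgeR adjusted p = 0.661) for Slc20a2. Adult replicate 4 held the highest Slc20a1 value, and without it the log2 fold change of Slc20a1 was 0.29 (adjusted p = 0.857, edgeR), whereas it was -0.66 without adult replicate 2. That of Slc20a2 lay between 0.22 without adult replicate 3 and 0.80 without adult replicate 2. Their log2 ratio differed by -0.71 between the ages (exact permutation p = 0.429, adjusted 0.429), with juvenile replicate 1 at -2.47 and adult replicate 2 at -2.15, and was -0.27 and -1.41 without each of these in turn. Exons of Slc20a1 share 452 bases with 9830144P21Rik and exons of Slc20a2 share 95 with Smim19, each on the opposite strand.

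Fam20c (ENSMUSG00000025854, chromosome 5, 138754514 to 138810077, plus strand) encodes the Golgi kinase that phosphorylates secreted proteins, among them DMP1, osteopontin and FGF23. It had 1154, 974, 971, 679 and 678 normalized counts in juvenile replicates 1 to 5 and 625, 611, 441 and 648 in adult replicates 1 to 4. Juvenile replicates 4 and 5 were the lowest of their age and lay just above adult replicate 4, so the ages did not overlap. The juvenile mean was 891 ± 208 (SD, n = 5) against 581 ± 94.6 (SD, n = 4) in adults, and the log2 fold change of 0.62 ± 0.22 (SE, edgeR adjusted p = 0.14) missed the threshold. Over the 7 libraries it was 0.83 ± 0.21 (SE, edgeR adjusted p = 0.132).

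Phex (ENSMUSG00000057457, chromosome X, 157162075 to 157415312, minus strand), an endopeptidase of osteoblasts and osteocytes, had 1273, 2456, 1899, 989 and 1431 normalized counts in juvenile replicates 1 to 5. In adult replicates 1 to 4 it had 1089.7, 825, 1698 and 1463, and the ages overlapped. The log2 fold change was 0.34 ± 0.28 (SE, edgeR adjusted p = 0.609). As Phex is X-linked, its value over the 7 libraries is given too, 0.57 ± 0.29 (SE, edgeR adjusted p = 0.519). Without juvenile replicate 2 it was 0.14 and without adult replicate 2 it was 0.16. Fgf23 (ENSMUSG00000000182, chromosome 6), the phosphaturic hormone of osteocytes, had 0 counts in all 9 libraries, where 3 counts, the limit that a count of 0 allows, correspond to between 0.371 and 0.618 CPM.

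Dmp1, which encodes an acidic matrix protein and substrate of FAM20C, was higher in every juvenile library, and its log2 fold change was 1.93 ± 0.25 (SE, edgeR adjusted p = 0.00203). Relative to Dmp1, Fam20c was at -3.18, -3.70, -3.24, -3.31 and -3.00 on the log2 scale in juvenile replicates 1 to 5 and at -1.90, -2.34, -2.19 and -1.56 in adult replicates 1 to 4. The ratio was lower in every juvenile library than in every adult library, by 1.29 on average. Phex to Dmp1 averaged -2.47 ± 0.44 (SD, n = 5) and -0.91 ± 0.76 (SD, n = 4), also without overlap. Both ratios were tested and entered the adjustment over 6 ratios. They are given here as a description, without p-values, because their denominator had the largest change of the 3 genes and was known to differ when they were chosen.

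Levels of different members were compared per length, as CPM per kilobase of exon (RPKM). Alpl had the highest level at both ages, with 347 ± 50.4 RPKM (SD, n = 5) in juvenile against 221 ± 60.8 (SD, n = 4) in adults. Smpd3 followed with 219.5 ± 53.6 and 97.3 ± 12.9 RPKM and Phex with 40.8 ± 14.6 and 32.1 ± 9.82 RPKM, and neither the ranges of Alpl and Smpd3 nor those of Smpd3 and Phex overlapped at either age. The ranges of Phex and Ank overlapped at both ages, and Phex was the higher in 4 of 5 juvenile and 4 of 4 adult libraries. Ank and Fam20c came next, at 21.6 and 21.5 RPKM in juvenile mice, where Ank was the higher in 2 of 5 libraries. In adult mice they were at 20.04 and 14.1 RPKM and their ranges were apart. Slc20a2, Slc20a1 and Enpp1 lay between 3.15 and 8.98 RPKM on average in juvenile mice and between 4.03 and 7.39 in adult mice, with neighbours in the order overlapping. Phospho1 was the lowest of the members with counts, at 2.06 and 0.424 RPKM, and was below Enpp1 in 4 of 5 juvenile and 4 of 4 adult libraries. This rank is uncertain, since its RPKM is over the full exon length and reads on the bases it shares with other genes could have been left out.

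Genes that act beside the members were read from 8 lists, in which 5 of 38 genes tested had an adjusted p under 0.05 in edgeR. Among all genes tested the share was 3.88%. The lists were chosen with earlier results of these data known, so these shares are no test of the lists. In the list for sphingomyelin, choline and phosphocholine metabolism 1 of 11 genes tested passed. This was Sgms2, a sphingomyelin synthase of the plasma membrane, at 6794 ± 1455 (SD, n = 5) against 2981 ± 946 (SD, n = 4) normalized counts and with a log2 fold change of 1.19 ± 0.23 (SE, edgeR adjusted p = 0.0142). The median log2 fold change of the list was 0.20. Among secretory pathway kinases related to FAM20C, 2 of 5 passed in opposite directions. Pkdcc was higher in juvenile mice (log2 fold change 1.75 ± 0.28 SE, edgeR adjusted p = 0.00566) and Fam198b in adult mice (log2 fold change -1.41 ± 0.28 SE, edgeR adjusted p = 0.016), and the median of the 5 was -0.075. Of the secreted matrix substrates of FAM20C 2 of 4 tested passed, Dmp1 and Ibsp, which encodes bone sialoprotein (log2 fold change 1.30 ± 0.21 SE, edgeR adjusted p = 0.00535), with a median of 0.73. Over the 7 libraries Dmp1 and Ibsp kept their calls, with adjusted p-values of 0.0074 and 0.039, and those of Sgms2, Pkdcc and Fam198b were 0.127, 0.0761 and 0.12 (edgeR). The log2 fold changes of these 3 genes were then 1.08, 1.49 and -1.11.

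In the other lists no gene passed the edgeR threshold, while Nt5e and Anxa6 passed in DESeq2 alone, the tool with the most calls, and Fgfr1 in limma voom. The 6 tested genes of pyrophosphate and extracellular nucleotides had a median of 0.097, the 7 of FGF23 processing, receptors and the vitamin D axis 0.45, and the 4 annexins and inhibitors of mineralization 0.28, and 1, 3 and 2 of them had an unadjusted p under 0.05. Of 6 other phosphate transporters Xpr1, the phosphate exporter, was the 1 tested, with a log2 fold change of -0.30. The 3 other alkaline phosphatase genes Alpi, Alppl2 and Akp3 had 0 counts in all libraries, so Alpl was the alkaline phosphatase gene with counts here.

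Most markers of osteoblasts, like Smpd3, were higher in juvenile mice, whereas those listed for osteocytes were divided. Of 11 osteoblast markers 9 passed the test, 7 higher in juvenile and 2 in adult mice, and none was at 0 in any library. Their summed normalized counts were 1331684, 1441652, 1314092, 1640294 and 1502115 in juvenile replicates 1 to 5 and 665727, 703387, 712664 and 470444 in adult replicates 1 to 4. Sparc was the most abundant per length in juvenile mice, at 12418 RPKM against 5357 in adult mice, and Bglap in adult mice, at 9891 against 2407 RPKM. The markers that were higher in adult mice were Bglap and Bglap2, with log2 fold changes of -2.04 ± 0.40 and -2.38 ± 0.41 (SE, edgeR adjusted p = 0.0151 and 0.00827). They are near-identical paralogs whose counts are uncertain, and each was higher in every adult library than in every juvenile library. Over the 7 libraries, compared for all marker lists after the data were seen, 4 osteoblast markers passed in edgeR, Col1a1, Col1a2, Sparc and Ibsp. There 9 of the 11 had an unadjusted p under 0.05 in edgeR. The median log2 fold change of the 11 was 0.96 over the 7 libraries and 0.99 over all 9. Of 5 osteocyte markers 1 passed, Dmp1, the most abundant, which also passed over the 7 libraries. The sums were 10816, 13604, 10185, 7490 and 5965 in juvenile replicates 1 to 5 and 4103, 3694, 3472 and 2499 in adult replicates 1 to 4, with at most 1 marker at 0 in a library. Most of these counts were on Dmp1, 10458 of the 10816 in juvenile replicate 1, and as osteoblasts express Dmp1 too, the sums do not stand for osteocytes alone. The median log2 fold change of the 5 markers was -0.64. Sost was higher in every adult library, with a log2 fold change of -3.40 ± 1.03 (SE, edgeR adjusted p = 0.0881), and it passed in DESeq2 and limma voom. The log2 fold changes of Mepe, Dkk1 and Pdpn, which did not pass in edgeR, were -1.26 ± 0.97, -0.64 ± 0.44 and 1.55 ± 0.56 (SE, adjusted p = 0.587, 0.525 and 0.153). The part of bone cells in the result was not tested.

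Relative to the mean log2 CPM of the osteoblast markers, Smpd3 was at -0.95, -1.51, -1.11, -0.72 and -0.66 in juvenile replicates 1 to 5 and at -2.09, -1.42, -1.82 and -1.34 in adult replicates 1 to 4. On this scale the difference was 0.68 and juvenile replicate 2 lay within the adult range (exact permutation p = 0.0476, 1 of 9 members compared in this way). This difference of Smpd3 was 0.13 once Bglap and Bglap2 were left out of the list. Ank was lower in every juvenile library than in every adult library, by 0.35 on average (exact permutation p = 0.0159). The ages nearly met, at -4.6087 in juvenile replicate 4 and -4.6055 in adult replicate 3. For Ank the difference was -0.90 without Bglap and Bglap2, and Phospho1 differed by 1.38 with the full list (exact permutation p = 0.0476). None of the 9 passed once the number of comparisons was taken into account. Without Bglap and Bglap2 the differences of Smpd3 and Phospho1, the latter at 0.83, were the 2 of 9 above 0, and those of Alpl and Fam20c were -0.34 and -0.42, where the full list gave 0.21 and 0.13.

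Markers of neutrophils and erythroid cells were higher in adult mice, opposite to Smpd3. All 7 neutrophil markers passed in edgeR, and their summed normalized counts were 36, 194, 59, 402 and 108 in juvenile replicates 1 to 5 and 26996, 572, 21797 and 21843 in adult replicates 1 to 4. The most abundant was S100a9, at 15.1 RPKM in juvenile and 1546 in adult mice, and up to 4 of the 7 were at 0 in a juvenile library. All 7 erythroid markers passed in edgeR, with sums of 16039, 6352, 2730, 3374 and 2610 in juvenile replicates 1 to 5 and 49556, 29087, 70458 and 230776 in adult replicates 1 to 4, and Hbb-bs was the most abundant, at 525 and 9201 RPKM, with at most 1 marker at 0 in a library. Over the 7 libraries 5 neutrophil and 0 erythroid markers passed in edgeR, where 7 of each had an unadjusted p under 0.05, and over all 9 libraries limma voom called 1 and 6 of them and DESeq2 6 and 7. Smpd3 was at 3608 normalized counts in adult replicate 2, which had few neutrophil counts, and at 2636 to 3423 in the other adult libraries. That library also had the lowest erythroid sum of the adult libraries and their highest sum of growth plate chondrocyte markers, 29262. Alpl was at 5403 there and highest in adult replicate 1, at 7743. The part of these cells in the result was not tested.

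Of 7 growth plate chondrocyte markers tested 2 were higher in adult mice, Col2a1 and Comp, where sums were 6570, 29262, 3743 and 4594 in replicates 1 to 4, against 2276 to 6183 in juvenile mice, and the most abundant per length was Col10a1 in juvenile mice, at 94.0 RPKM, and Col2a1 in adult mice, at 138 RPKM, while up to 5 of the 8 listed were at 0 in a library. Of 8 osteoclast markers 2 were higher in adult mice, Acp5 being the most abundant, with sums of 103664 to 160674 against 81255 to 132737. Of 8 endothelial markers 0 passed in edgeR, and sums of 3986 to 4752 in adult and 3440 to 5289 in juvenile mice overlapped, with Egfl7 the most abundant and none at 0, and DESeq2, limma voom and an unadjusted p under 0.05 also gave 0. Of 6 macrophage markers 1 passed, higher in adult mice, with sums of 6346 to 10352 against 2894 to 5087 and Cd68 the most abundant. The median log2 fold change of these 6 was -3.25, 5 of them had an unadjusted p under 0.05, and 2 passed in DESeq2 and 1 in limma voom. Of 5 B cell markers 0 passed in edgeR, with sums of 9 to 912 in adult and 0 to 98 in juvenile mice and the most abundant Vpreb1 in juvenile and Vpreb3 in adult mice, while 2 had an unadjusted p under 0.05, 2 passed in DESeq2 and 0 in limma voom. Of 6 markers of adipogenic marrow stroma 3 passed, Cxcl12 and Apoe higher in adult and Lepr in juvenile mice, with sums of 3233 to 13518 against 2632 to 3286 and Apoe the most abundant. A single macrophage marker, Csf1r, higher in adult mice, and 1 stromal marker, Lepr, higher in juvenile mice, passed in edgeR over the 7 libraries, and 0 of the chondrocyte, osteoclast, endothelial and B cell markers, of which 3, 2, 0 and 1 had an unadjusted p under 0.05. The part of these cells in the members' values was not tested.

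**Figure D3:**
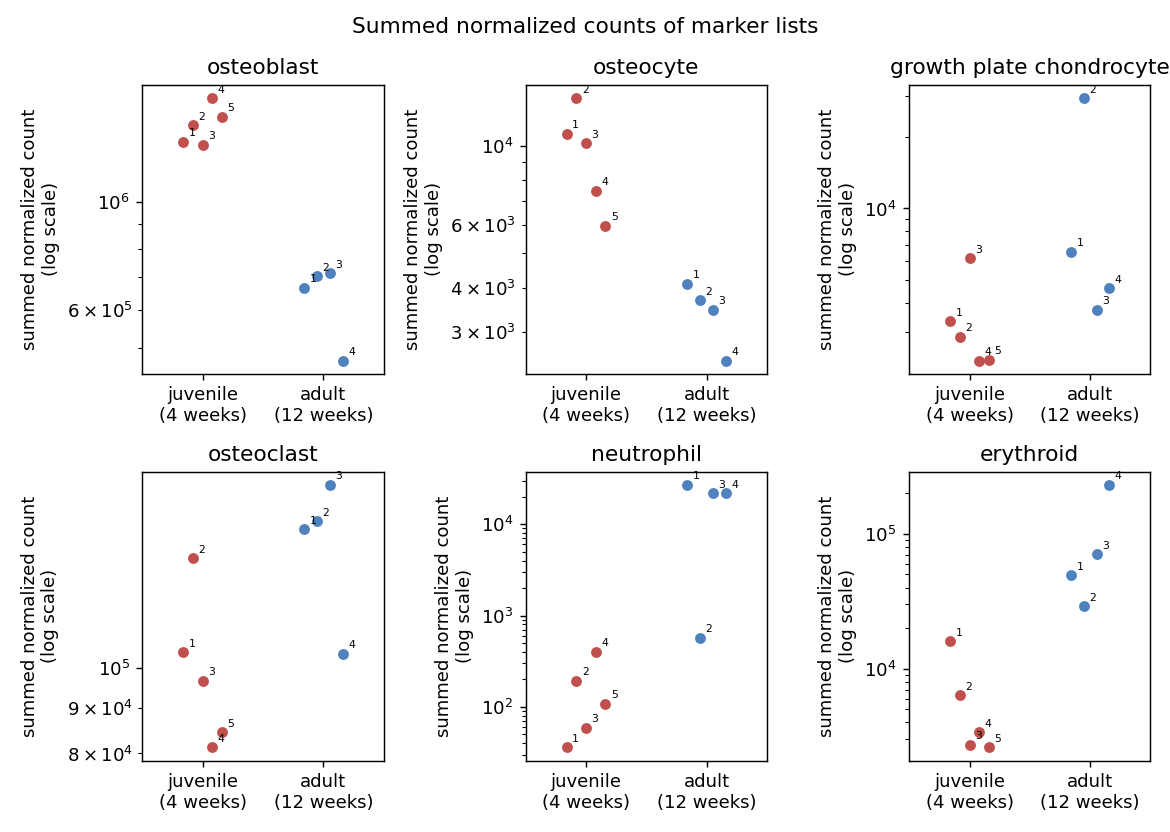
Summed normalized counts (y axis, log scale) of 6 marker lists in juvenile (4 weeks, n = 5) and adult (12 weeks, n = 4) libraries, as points with replicate numbers. Osteoblast sums are all higher in juvenile libraries, and neutrophil and erythroid sums are all higher in adult libraries.

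Members varied among themselves within the ages. After each age was centred on its mean log2 CPM, Pearson's r over the 9 libraries was above 0 for 14 of 36 pairs of members and below 0 for 22, with a median of -0.11. It was 0.69 for Phex and Slc20a1, 0.58 for Alpl and Ank, and -0.78 for Phospho1 and Fam20c. Smpd3 and Alpl, both with higher means in juvenile mice, had an r of -0.54 within the ages and 0.57 without centring. All points share their library with its depth and its mixture of cells, so these values are a description.

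Among genes tested with a mean log2 CPM over 3, those with the pattern most like Smpd3 within the ages were Luc7l2 and Lrch1 (r = 0.95 and 0.94 over 9 libraries). For Alpl they were Zfp46 and Smpd2 (r = 0.96 and 0.95), and Smpd2 encodes another neutral sphingomyelinase. Stk24 and Odr4 were closest to Phospho1 (0.98 and 0.95), Loxl4 and Clp1 to Enpp1 (0.97 and 0.94), and Rab29 and Usp21 to Ank (0.97 and 0.95). Slbp and Serinc3 followed Phex (0.97 and 0.96), Cd37 and Ehd2 Slc20a1 (0.97 and 0.96), St13 and Vamp5 Slc20a2 (0.96 and 0.93), and Sned1 and Dpm2 Fam20c (0.95 and 0.94). At least 9793 genes were searched for each member, and high values of r arise among so many.

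Promoter windows of 300 bases, from 250 before to 50 after a gene's start, were taken from RefSeq (GRCm38.p6) for 8 of the 10 members, the others being Slc20a2 and Smpd3. The core motif of RUNX factors, TGTGGT, or ACCACA on the other strand, was present in 2 of 10 windows of members and in 5506 of 32851 windows of all genes (16.8%). Both windows are shown because they hold the motif (in capitals), and both starts of Alpl because it is the member with the highest level. All are written 5′ to 3′ on the strand of the gene. The window of Enpp1 is chr10:24712110-24712409 on the minus strand, with the motif from base 107, and that of Slc20a1 is chr2:129198523-129198822 on the plus strand, with the motif from base 174. Those of Alpl, on the minus strand, are chr4:137796335-137796634 and chr4:137766426-137766725, the latter within the span of the gene, with 70.0% and 54.3% G and C bases. A match is a description of these letters alone.
Enpp1: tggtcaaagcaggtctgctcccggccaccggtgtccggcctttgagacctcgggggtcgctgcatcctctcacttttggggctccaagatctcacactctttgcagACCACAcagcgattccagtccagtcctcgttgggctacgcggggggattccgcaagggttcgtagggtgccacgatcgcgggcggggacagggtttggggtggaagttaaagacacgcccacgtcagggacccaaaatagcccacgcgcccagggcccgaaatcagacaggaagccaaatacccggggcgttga
Slc20a1: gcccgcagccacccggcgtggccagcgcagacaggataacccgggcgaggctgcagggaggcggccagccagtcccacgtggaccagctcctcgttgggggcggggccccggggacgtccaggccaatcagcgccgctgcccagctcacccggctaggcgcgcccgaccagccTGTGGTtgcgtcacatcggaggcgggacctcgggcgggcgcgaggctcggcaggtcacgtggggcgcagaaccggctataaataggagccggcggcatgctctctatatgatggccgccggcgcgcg
Alpl, upstream start: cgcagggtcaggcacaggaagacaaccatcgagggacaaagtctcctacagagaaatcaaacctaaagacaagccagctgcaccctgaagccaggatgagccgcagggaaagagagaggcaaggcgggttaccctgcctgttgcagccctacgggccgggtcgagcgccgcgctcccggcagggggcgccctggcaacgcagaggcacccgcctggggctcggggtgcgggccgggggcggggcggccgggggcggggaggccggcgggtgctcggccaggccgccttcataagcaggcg
Alpl, downstream start: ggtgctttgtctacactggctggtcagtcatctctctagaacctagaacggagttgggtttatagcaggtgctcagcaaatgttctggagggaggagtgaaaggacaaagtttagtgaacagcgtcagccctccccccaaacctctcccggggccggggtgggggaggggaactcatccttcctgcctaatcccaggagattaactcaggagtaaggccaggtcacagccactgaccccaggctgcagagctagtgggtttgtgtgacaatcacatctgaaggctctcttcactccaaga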

How the data were processed

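The authors mapped paired-end reads of SMART-Seq libraries to the mouse genome (GRCm38, mm10) and deposited raw read counts per gene, in whole numbers, as 1 table a library. The submitters' processing notes name TopHat2, Bowtie2 and featureCounts, and the strand setting and annotation release are not given in the sources used here. Symbols and exon lengths came from GENCODE M21, which held 96.0% of the gene identifiers.

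Ages were compared over all 9 libraries with edgeR 4.0.16 under R 4.3.3 (filterByExpr, TMM, quasi-likelihood F test, no covariate), with Benjamini-Hochberg adjustment over all genes tested and a threshold of 0.05. Log2 CPM used a prior count of 2. Ratios and levels relative to osteoblast markers were tested by exact permutation of the libraries, two-sided (scipy 1.17.1), adjusted over the values of each kind. The 10 cell type lists and 8 pathway lists, like the members, were chosen with earlier results of these data known. Genes named are the members, Dmp1, pathway genes with an adjusted p under 0.05, the most abundant gene of each marker list and the 2 genes closest in pattern to each member. Other genes were named after their values were seen.

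No library was a copy of another in 36 pairs. Alternatives were other scalings, filters and gene sets, DESeq2 1.42.0, limma 3.58.1 voom with quality weights, a replicate block, the 7 libraries in which Xist exceeded Y-linked genes, and each library left out in turn. Limits set at 3 counts cover counting error only, since PCR copies are not independent molecules.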

Additional observations from a re-analysis of the deposited data

Results flagged for a closer look

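In 4 of 86 groups of libraries, 1 library lay far from the others of its age, by Dixon's ratio of its distance from the next library to the spread of the whole group. About 1 in 20 groups does so by chance. None of the members' own values was among them. The summed normalized counts of growth plate chondrocyte markers were 29262 in adult replicate 2, against 3743 to 6570 in the other adult libraries, and 6183 in juvenile replicate 3, against 2276 to 3341 in the other juvenile libraries. Erythroid markers summed to 16039 in juvenile replicate 1, against 2610 to 6352 in the other juvenile libraries. Genes of FGF23 processing, receptors and the vitamin D axis summed to 12662 in juvenile replicate 4, against 10122 to 10452 in the other juvenile libraries.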

How the results depend on the processing

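The number of genes with an adjusted p under 0.05 was 520 in edgeR with all 9 libraries. It was 1490 in DESeq2, 460 in limma voom and 73 over the 7 libraries in which Xist exceeded Y-linked genes. With 1 library left out it was 262 (without juvenile replicate 5) to 651 (without adult replicate 2), and 275, 293 and 332 without juvenile replicates 4, 3 and 2. The number of members that passed, 1 in edgeR, was 3 in DESeq2 (Alpl, Phospho1 and Smpd3), 2 in limma voom (Alpl and Smpd3), 0 over the 7 libraries and 1 to 2 with 1 library left out. The log2 fold change of Smpd3 was 1.08 to 1.29 with 1 library left out, and passed each time, and 0.93 over the 7 libraries, which have fewer samples. That of Alpl was 0.62 in DESeq2 and 0.70 in limma voom, where it passed, and 0.51 to 0.83 with 1 library left out. That of Phospho1 was 2.24 in DESeq2, where it passed. With the other scalings, filters and gene sets 488 to 647 genes and 1 member, Smpd3, passed. The log2 fold change of Slc20a1 was -0.66 to 0.29 with 1 library left out. The cause was not tested.

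With the replicate block, 89 genes and 0 members passed, and Smpd3 had a log2 fold change of 1.06 (adjusted p = 0.0801, edgeR). Libraries with the same number are from different mice, and the deviations of the 4 same-numbered pairs from their age means correlated at -0.041 to 0.046, which gave no ground for a paired analysis. Of the adult libraries 2 of 4 correlated best with their own number.

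The log2 ratios of Alpl to Ank, Fam20c to Dmp1 and Phex to Dmp1 were 0.68, -1.38 and -1.65 over the 7 libraries. With 1 library left out they were 0.48 to 0.64, -1.40 to -1.14 and -1.90 to -1.34, and as the smallest exact permutation p was then 0.0286 or 0.0357, the adjusted p of Alpl to Ank over 6 ratios was 0.0429 to 0.0714, under 0.05 without juvenile replicate 1 and in no other case. Phospho1 to Smpd3 was 0.49 to 1.01, and passed without juvenile replicate 1. Adjusted over the 4 ratios without Dmp1, a choice made after seeing the data, none passed, with all libraries (Alpl to Ank 0.56, exact permutation test, adjusted p = 0.0635) or with 1 left out. Relative to osteoblast markers, Phex was at 0.12 over the 7 libraries. With the median of the markers, Enpp1, Ank, Phex and Slc20a1 were at 0.34, 0.75, 0.96 and 0.45, where the mean gave -0.77, -0.35, -0.14 and -0.65. Smpd3 was at 1.78 with the median and 0.68 with the mean. But this median fell on Bglap2 in adult replicates 1, 3 and 4, Bglap in juvenile replicate 4 and Ifitm5 in the others, and so is no common scale. Without Bglap and Bglap2, Alpl, Slc20a2 and Fam20c were at -0.34, -0.49 and -0.42 and Smpd3 at 0.13. The full list gave 0.21, 0.056 and 0.13 for the former and 0.68 for Smpd3. With 1 library left out, Slc20a2 was at -0.50 to 0.35, Phex at -0.32 to 0.059 and Fam20c at -0.084 to 0.31. The cause was not tested. Phospho1 was filtered out with at least 10 counts in every library and without juvenile replicates 2, 3, 4 or 5, and at its depth of 136 counts a difference is poorly resolved.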
